A study of Mus musculus with 10 samples.

Results

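Retinal ganglion cells (RGCs) that carried transcripts of Tfap2d were studied in 10 single-cell RNA-seq libraries of the mouse retina. A cell was chosen by its own counts: it had to hold at least 2 Tfap2d UMIs (unique molecular identifiers, each of which counts as 1 captured transcript) and at least 1 Tfap2d UMI per 10000 UMIs. It also had to lie under 1 per 10000 for each of 5 genes that mark other ganglion cell classes, Opn4, Eomes, Foxp2, Tbr1 and Neurod2. After barcodes of the fourth injured library that recurred in the third were dropped, 205 of 2871 cells met these limits, and they are called Tfap2d cells below. The 6 genes of the limits were used to choose the cells, so their values are given as a description and were not tested.

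The libraries held RGCs of 12-week-old 129S1/SvImJ mice of both sexes, enriched by Thy1 immunopanning from 10 retinas per batch after depletion of macrophages per the labels, to which the study's methods add amacrine cells. There were 6 libraries of uninjured RGCs and 4 of RGCs taken 2 weeks after optic nerve crush (ONC), which severs the axons behind the eye. The fourth injured library shared 421 barcodes with the third, so these were joined as 1 unit, injured 3/4, and 9 units remained. Each batch pooled retinas of several animals, so p-values measure the spread between pools.

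Some libraries stood apart. Uninjured 1 and uninjured 2 held 98 and 103 cells with 0 and 1 Tfap2d cells, and the gene tests below therefore used the 7 units with at least 5 Tfap2d cells, uninjured 3 to 6 and injured 1, 2 and 3/4. In these units the Tfap2d cells summed to between 261894 and 2697758 UMIs. Transcripts of mCherry, a fluorescent reporter, were found in 22 of 27 Tfap2d cells of injured 3/4, in 2 of 13 of injured 1, in 1 of 10 of injured 2 and in none of the uninjured units. Xist, which is expressed in female cells, was found in 10 of 13 and 9 of 10 Tfap2d cells of injured 1 and injured 2 and in none of the Tfap2d cells elsewhere. Injury therefore cannot be told apart from these differences between libraries where they fall together with it. The part of mCherry and of sex in the injury results was not tested.

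Tfap2d encodes AP-2δ, a member of the AP-2 family of transcription factors, which bind GC-rich sites in DNA. In the retina it is made by a subset of RGCs and in the midbrain by the colliculi, whereas its relatives Tfap2a, Tfap2b and Tfap2c are known for amacrine interneurons. RGCs are the only neurons that carry visual signals from the retina to the brain, and they are divided into many types by their transcription factors, peptides and synaptic partners. Satb1 and the peptide precursor Cartpt are known from ON-OFF direction-selective RGCs.

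The Tfap2d gene lies on chromosome 1 of mm39, from 19173246 to 19236570 on the plus strand. Of all cells, 541 held at least 1 Tfap2d UMI and 435 held at least 2. Of the latter, 137 were under 1 per 10000 and 298 passed the Tfap2d limit. The limits on the 5 other genes then removed 93, of which 49 exceeded the limit on Neurod2, 33 on Foxp2, 10 on Tbr1 and 5 on Eomes, while 0 exceeded that on Opn4. The cell just inside the rate limit held 1.01 Tfap2d UMIs per 10000 and the one just outside 0.994. The median Tfap2d cell held 2.08 per 10000, the highest 14.8, and 13 cells held exactly 2 UMIs.

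Tfap2d UMIs were also counted in cells chosen for other factors. In the uninjured units 87 of 114 Neurod2 cells (at least 2 UMIs and 1 per 10000 of Neurod2) held a Tfap2d UMI, which is 76.3% at a median depth of 34624 UMIs. The share was 25.0% of 44 Tbr1 cells, 17.7% of 327 Foxp2 cells and 13.8% of 94 Eomes cells. In the 1250 cells in neither the Foxp2 nor the Neurod2 class, the Tfap2d cells included, it was 21.1% at a median depth of 27890 UMIs. The Foxp2 and Eomes shares lay below that level. It is no background level, since the Tfap2d cells in it were chosen for these UMIs. The comparison therefore cannot decide whether Foxp2 or Eomes cells express Tfap2d. Of these uninjured cells, 15 Foxp2 and 5 Eomes cells passed the Tfap2d limit. In the injured units a Tfap2d UMI was found in 24.8% of 125 Foxp2 cells, at a median depth of 14662 UMIs, above the 9.98% of 1062 cells in neither class, at 14079 UMIs. Among Opn4 cells, the intrinsically photosensitive type, it was 0 of 56 at a median depth of 30178 UMIs, which allows a share of up to 5.36% of cells with a UMI and does not limit the cells that express the gene. In the injured units 2 of 43 Opn4 cells held a Tfap2d UMI, at a median depth of 15005 UMIs.

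Repeat sequencing gave a measure of how firmly the limits sort a cell. Of the 26 Tfap2d cells that came from injured 3, 23 had a barcode that injured 4 also held. Among the dropped copies in injured 4, 24 met the limits and 16 of these met them in injured 3 as well. Cells near the limits can therefore fall on either side of them.

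The ganglion cell label was checked against marker genes. The glutamate transporter gene Slc17a6 stood at 544, 541, 445 and 422 counts per 1000000 (CPM, UMIs per 1000000 after normalization) in uninjured 3, 4, 5 and 6, and at 634, 829 and 453 in injured 1, 2 and 3/4. Summed levels of 18 pan-RGC genes ran from 6635 to 10252 CPM in Tfap2d cells and from 6203 to 11168 CPM in the other cells. Summed levels of 8 microglia and macrophage genes were at most 16.0 CPM and of 10 rod and cone genes at most 12.1 CPM in the Tfap2d cells of any unit. Summed levels of 15 amacrine genes ran from 594 to 1160 CPM in uninjured and from 493 to 1200 CPM in injured Tfap2d cells, against 720 to 1010 CPM and 518 to 685 CPM in the other cells. Part of that came from Pax6, which RGCs also express, at 320 to 357 CPM in uninjured and 92.4 to 129 CPM in injured Tfap2d cells. Of the amacrine factors, Tfap2b stood at 65.0, 24.7, 19.7 and 0 CPM in the uninjured units and at 203, 0 and 11.5 CPM in the injured ones, so 1 injured unit was far above the rest. Slc18a3, a gene of cholinergic amacrine cells, and Ptf1a, a factor of amacrine precursors, had no UMI in any Tfap2d cell. Summed levels of 10 Muller glia genes were above those of the other cells, at 321 to 589 CPM against 203 to 268 CPM in uninjured units and at 494 to 1128 CPM against 319 to 475 CPM in injured ones. At least 3 of the 15 amacrine genes had a UMI in 80.0, 89.7, 54.8 and 26.7% of the Tfap2d cells of uninjured 3 to 6, against 57.9, 76.0, 38.1 and 28.5% of the other cells. In injured 1, 2 and 3/4 these shares were 61.5, 60.0 and 74.1% against 41.2, 43.7 and 37.5%, so they were higher in the Tfap2d cells of 6 of 7 units, which were also the deeper cells. Only 29 of 205 Tfap2d cells were free of such sets of markers of another class. Most cells of the data held such sets too, since 933 of all 2871 cells, the Tfap2d cells included, were free of them. The part of other cells' transcripts in the results was not tested, and counts without cells that held at least 2 of 6 amacrine markers are given beside the results they move.

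**Figure D1:**
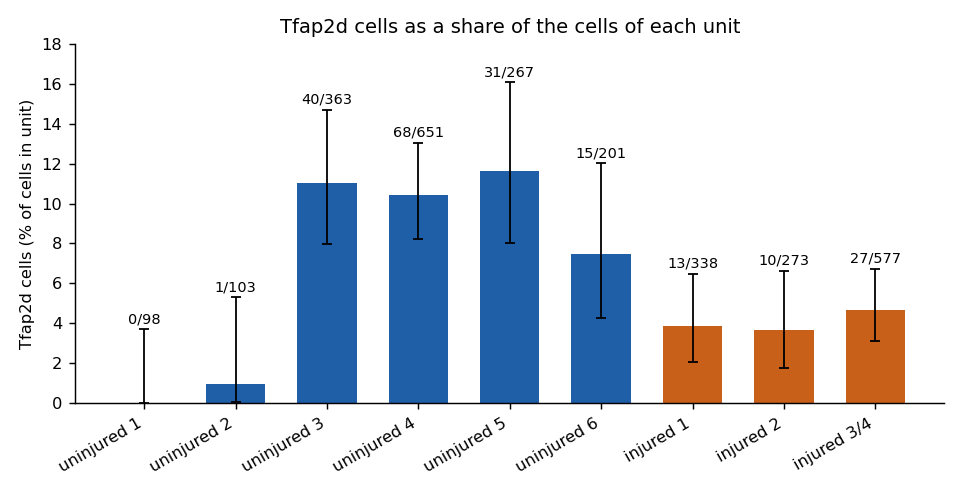
Tfap2d cells as a percentage of the cells of each unit (bars, uninjured blue and injured orange), with exact 95% binomial intervals and the counts above them. Uninjured 3 to 6 lie between 7.46% and 11.6%, the 3 injured units between 3.66% and 4.68%, and uninjured 1 and 2 below all of these.

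Whether these cells made up a different share of RGCs after ONC was compared over units. In the uninjured units they made up 0, 0.971, 11.0, 10.4, 11.6 and 7.46% of the cells of libraries 1 to 6, and in the injured units 3.85, 3.66 and 4.68%. The means were 6.92% ± 5.19 (SD, n = 6) and 4.06% ± 0.54 (SD, n = 3), and the injured units lay above uninjured 1 and 2 and below uninjured 3 to 6. The difference of the mean log2 shares was -0.09, with 0.5 added to each count of Tfap2d cells because uninjured 1 held 0, so it differs from the ratio of the means above. Its p was 1 by an exact two-sided permutation test, in which 6 against 3 units allow no p below 0.0238. The difference was -0.72 without uninjured 1 and, in the other direction, 0.19 without uninjured 5. It was -1.28 without both uninjured 1 and 2, a setting chosen after seeing the data.

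The share can be set by depth and by the panning step. The median uninjured cell of the units with Tfap2d cells was deeper than the injured one in both classes, at 23110 to 43503 against 19146 to 20751 UMIs in Tfap2d cells and at 19880 to 33661 against 13259 to 14575 in others. With each cell thinned to 8000 UMIs and at least 1 Tfap2d UMI required, the shares averaged 8.09% and 5.60% (exact permutation p = 0.929). The cells of 5 other factors were chosen by at least 2 UMIs and 1 per 10000 of the factor, with no limit on other genes, and 31 Foxp2 and 47 Neurod2 cells also passed the Tfap2d limit. The share of Tfap2d cells relative to these is given as a description, with no test, since the same 5 genes chose the Tfap2d cells. Its log2 change after ONC was 0.55 relative to Foxp2, 1.62 to Tbr1, 1.08 to Eomes and 0.15 to Opn4 cells. Without uninjured 1 and 2, a setting chosen after seeing the data, these values were -0.50, 0.13, -0.41 and -1.49, so 3 of the 4 changed direction. It was 4.90 relative to Neurod2 cells, of which the injured units held 1, 0 and 0, so its size rests on the 0.5 added to each count.

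Mitochondrial transcripts also differed, at 5.39 to 6.39% of UMIs in uninjured Tfap2d cells against 4.34 to 5.57% in other cells, and at 2.43 to 5.59% against 1.61 to 3.13% after ONC, and their part in the results was not tested.

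The Tfap2d cells were next compared with all other cells of the same libraries to ask which other genes set them apart. They were rich in Cartpt and Satb1, in the synaptic release genes Syt2 and Cplx1, in the signal Nrg1 and in the cadherin Cdh11, and poor in the potassium channel Kcnd2, the cofactor Ldb2, the teneurin Tenm1 and the tachykinin precursor Tac1. Of 12294 genes tested with edgeR's quasi-likelihood test, 305 (2.48%) were higher and 425 (3.46%) lower in Tfap2d cells at an adjusted p below 0.05. Without uninjured 4 these counts were 165 and 261, and without uninjured 3 181 genes were higher. Part of the comparison cells were those kept out by the 5 limits. When only other cells within these limits were compared, 294 genes were higher and 373 lower.

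Cartpt, the precursor of the CART peptide, showed the largest rise among the genes named by a fixed rule. It is on chromosome 13, from 100034990 to 100047006 on the minus strand. Its level in Tfap2d cells was 3625, 2492, 3534 and 5528 CPM in uninjured 3, 4, 5 and 6, and 83.1, 101 and 341 CPM in injured 1, 2 and 3/4. In the other cells it was 234, 341, 377 and 517 CPM, then 28.3, 39.4 and 23.7 CPM. Tfap2d cells were higher in all 7 units, and the pooled difference was 8.65-fold (log2 3.11 ± 0.36 SE, adjusted p = 0.00391). In the 3 injured units alone the difference did not pass the threshold.

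Nrg1 encodes neuregulin-1, a ligand of ErbB receptors. Its level in Tfap2d cells was 1996, 2264, 1622 and 1818 CPM in the uninjured units and 1440, 1411 and 983 CPM in the injured ones. In other cells it was 622, 600, 434 and 491 CPM, then 719, 624 and 518 CPM. The ranges of the classes did not overlap in either condition, and the pooled difference was 2.84-fold (log2 1.51 ± 0.13 SE, adjusted p = 9.67e-06).

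Syt2, the calcium sensor synaptotagmin-2, reached 73.3, 124, 80.0 and 87.1 CPM in uninjured Tfap2d cells and 49.2, 36.4 and 56.3 CPM in injured ones. Other cells held 24.5 to 34.7 CPM and 8.6 to 13.1 CPM, below the Tfap2d cells of every unit (3.40-fold, adjusted p = 2.61e-06). Cplx1, complexin 1, which acts in the same release step, was 2.22-fold higher (adjusted p = 0.00157). The classical cadherin Cdh11 was 2.96-fold higher, at 203 to 304 CPM in uninjured Tfap2d cells against 67.4 to 105 CPM in others. Of the other genes among the 10 largest rises, Rasd2, a striatal small GTPase, was 2.48-fold, the secreted Dickkopf protein gene Dkk3 2.30-fold and the actin-binding palladin gene Palld 2.22-fold higher. Dkk3 is also on the Muller glia list, where it was the 1 gene called of 7 tested (median log2 difference 0.73). Of all genes tested, 2.48% were higher and 3.46% lower. The summed level of the Muller glia list was higher in Tfap2d cells as given above. Without cells holding markers of another class, Dkk3 differed by 2.69 on the log2 scale. That filter counts Dkk3 itself and left only uninjured 5, uninjured 6, injured 1 and injured 3/4, so nothing is read from this value. Syndig1l was 2.89-fold higher. Dab1, the reelin adaptor, was 3.26-fold higher, and its adjusted p rose to 0.0808, 0.0910 and 0.0711 without uninjured 3, 4 or 5.

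Among the 10 largest falls, Ldb2, a cofactor of LIM-homeodomain factors, stood at 31.9, 27.6, 19.7 and 10.6 CPM in uninjured and 27.7, 44.5 and 21.6 CPM in injured Tfap2d cells. Other cells held 82.5 to 170 CPM and 204 to 337 CPM, so the classes did not overlap in either condition (6.30-fold lower, adjusted p = 1.54e-11). Kcnd2, the A-type potassium channel Kv4.2, stood at 111 to 277 CPM in uninjured Tfap2d cells against 681 to 1002 CPM in others. After ONC it stood at 105 to 190 CPM against 466 to 573 CPM, and the pooled difference was 4.02-fold (adjusted p = 3.87e-06). Tac1, the precursor of substance P, was 3.35-fold lower, Tenm1 3.78-fold, the synaptic adhesion gene Elfn1 3.30-fold, Tmcc3 4.38-fold and the heparan sulfate enzyme Ndst4 3.00-fold. The calls of Ano3 and Hs3st2, which were also among the 10, were each lost without 1 of several units. Their adjusted p rose as high as 0.0910 for Ano3 (without uninjured 4) and 0.118 for Hs3st2 (without uninjured 3).

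**Figure D2:**
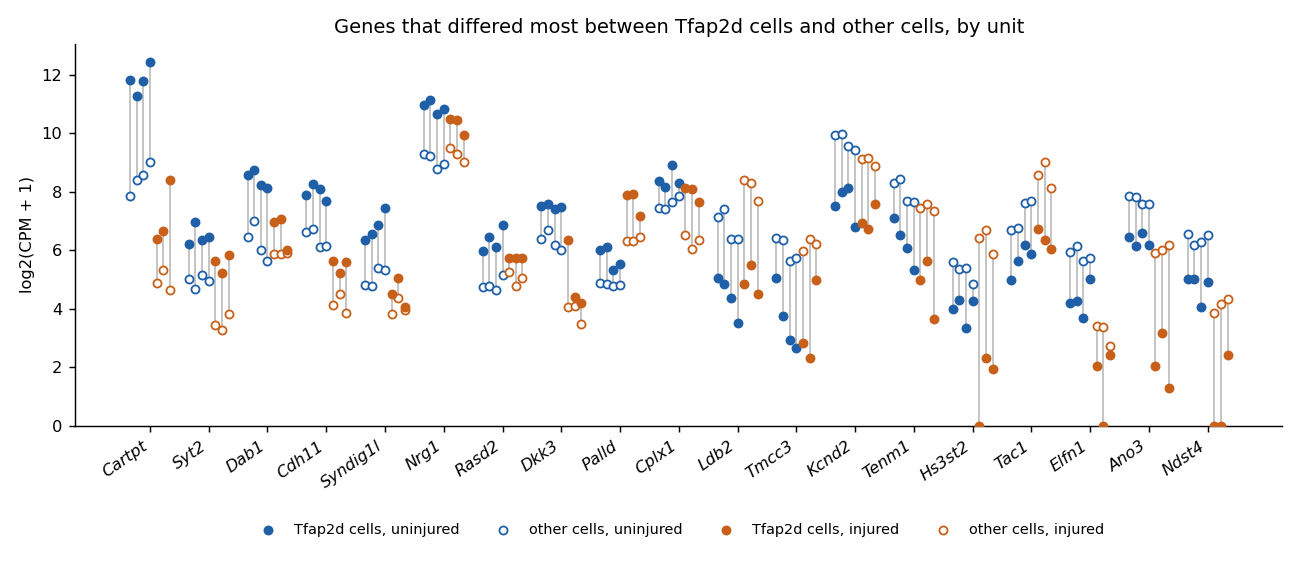
log2(CPM + 1) of the 10 genes with the largest rise (left) and 9 of the 10 with the largest fall (right) in Tfap2d cells (filled) and other cells (open) of each unit, uninjured blue and injured orange, joined within a unit. Both sets are from called genes that passed the rule on mean level and on the same sign in every unit. By that rule the filled point lies above the open one in every unit for the genes on the left. It lies below the open one for those on the right.

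The other lists were chosen with earlier results of these data known, and examples outside the rule were named after their values were seen. Of the transcription factors that divide RGCs into subclasses, 34 could be tested, of which 3 were higher and 5 lower (median log2 difference -0.15, against -0.02 over all genes, of which 2.48% were higher and 3.46% lower). Satb1, a chromatin organizer, stood at 221, 222, 219 and 177 CPM in uninjured Tfap2d cells and at 83.1, 113 and 113 CPM in injured ones. Other cells held 78.7 to 107 CPM and 61.6 to 78.5 CPM, below the Tfap2d cells of every unit (1.97-fold, adjusted p = 3.60e-06). Bcl11b and Irx6 were the other factors that were higher. Tbx20, a T-box factor, had no UMI in any Tfap2d cell of these units and 19.5 CPM in the others, at least 44.0-fold lower when 3 UMIs over all Tfap2d cells are taken as the floor. Zic1 was also without a UMI, at least 32.2-fold lower against the same floor, but it was not among the 5 factors called lower.

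Of 41 tested genes that mark RGC types, 5 were higher and 11 lower (median log2 difference -0.27), where 2.48% of all genes were higher and 3.46% lower. Besides Cartpt, the gut-brain peptide cholecystokinin (Cck) was 5.51-fold higher, and the protocadherin Pcdh9 (1.34-fold) and the peptide precursor Vgf (1.69-fold) were also higher. Jam2 was lower (2.78-fold), as were Trarg1 (2.78-fold) and Tac1. Cck was uneven, at 88.1, 95.9, 78.7 and 206 CPM in uninjured units and 49.2, 0 and 5.8 CPM in injured ones. Of the pan-RGC genes, 17 were tested, 4 higher and 3 lower (median 0.04), to be read against the same shares of all genes. The POU-domain factor Pou4f2 was 2.27-fold and Pou4f1 1.44-fold lower, and Ebf3 1.62-fold lower. Pou4f3 was higher with the units pooled (log2 1.02, adjusted p = 0.0498), a call lost without uninjured 3, 4, 5 or 6 or injured 1, with log2 values of 0.88 to 1.08.

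Receptor and channel genes moved in both directions. Of 42 tested, 7 were higher and 8 lower (median log2 difference 0.06), where 2.48% and 3.46% of all genes were. The GABA-A receptor subunits split. Gabra2 was 2.18-fold higher at 507 to 566 CPM in uninjured Tfap2d cells against 223 to 235 CPM in others, while Gabrb2 was 1.77-fold lower. The nicotinic receptor subunit Chrna3 was 3.58-fold higher. Chrna3 exceeded the other cells in 6 of 7 units. The sodium channel Scn1a was 1.31-fold higher and above the other cells in all 7 units.

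Of 63 tested adhesion and guidance genes, 6 were higher and 9 lower (median log2 difference 0.06), where 2.48% and 3.46% of all genes were. The class 3 semaphorins Sema3e (1.75-fold) and Sema3a (4.69-fold) were higher, whereas Pcdh10 (1.91-fold) and Cdh4 (log2 -0.59) were lower in all 7 units. Sema3a was at 267 to 346 CPM in uninjured Tfap2d cells against 45.5 to 56.6 CPM in others, but at 6.2, 8.1 and 53.4 CPM in injured ones against 17.3 to 19.9 CPM, so it was not higher in every unit, and its call was lost without uninjured 3, 4, 5 or 6 (adjusted p 0.0712 to 0.0951). Of 19 tested genes of the response to axon injury, 1 was higher and 5 lower (median -0.25), to be read against the same shares.

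**Figure D3:**
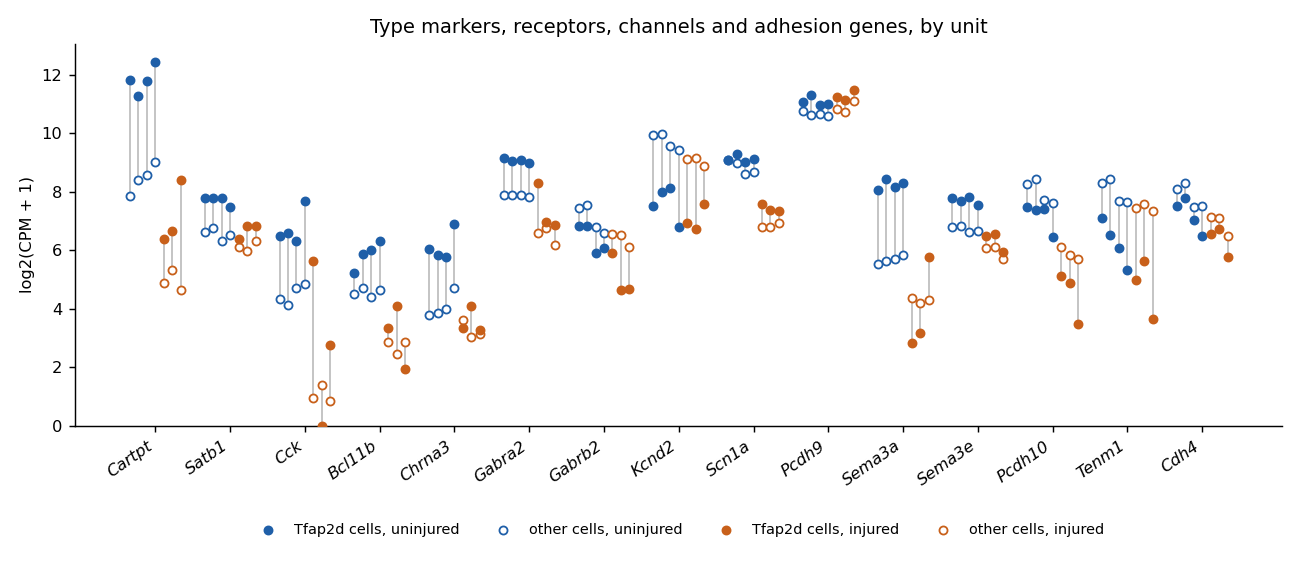
log2(CPM + 1) of type markers, receptors, channels and adhesion genes in Tfap2d cells (filled) and other cells (open) of each unit, uninjured blue and injured orange. The filled points of Satb1 and Gabra2 lie above the open ones in all 7 units, and those of Kcnd2, Pcdh10 and Tenm1 below them.

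Since AP-2 factors bind GC-rich sites, the promoters of these genes were searched for the AP-2 core GCCNNNGGC, which reads the same on both strands and may overlap itself. A promoter here runs from 250 bases before to 50 after the start of the canonical GENCODE transcript on mm39. Of 299 promoters of genes higher in Tfap2d cells, 61 (20.4%) held the motif, against 84 of 422 (19.9%) for genes that were lower and 2549 of 12080 (21.1%) for all genes tested. The share among the higher genes was thus near that of all genes. A match describes the letters of the sequence and is not a bound site.

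The promoters of Tfap2d itself, of Cartpt, and of Syt2 and Rasd2 are shown, the latter pair because they held a match among the 10 largest rises, of which Nrg1 was not searched. The bases are given 5′ to 3′ along each gene's strand, and capitals mark GCCNNNGGC.
Tfap2d, chr1:19172996-19173295, plus strand: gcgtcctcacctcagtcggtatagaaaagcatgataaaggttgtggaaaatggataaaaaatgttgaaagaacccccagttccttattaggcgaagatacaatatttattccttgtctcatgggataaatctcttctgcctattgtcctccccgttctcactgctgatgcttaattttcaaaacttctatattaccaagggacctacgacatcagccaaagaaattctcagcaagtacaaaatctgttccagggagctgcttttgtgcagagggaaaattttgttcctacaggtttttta
Cartpt, chr13:100037550-100037849, minus strand: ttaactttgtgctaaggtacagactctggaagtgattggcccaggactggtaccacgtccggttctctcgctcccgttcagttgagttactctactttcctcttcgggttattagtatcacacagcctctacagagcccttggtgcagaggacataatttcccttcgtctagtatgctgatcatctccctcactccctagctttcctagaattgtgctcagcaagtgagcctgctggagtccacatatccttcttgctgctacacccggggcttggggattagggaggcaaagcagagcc
Syt2, chr1:134574040-134574339, plus strand: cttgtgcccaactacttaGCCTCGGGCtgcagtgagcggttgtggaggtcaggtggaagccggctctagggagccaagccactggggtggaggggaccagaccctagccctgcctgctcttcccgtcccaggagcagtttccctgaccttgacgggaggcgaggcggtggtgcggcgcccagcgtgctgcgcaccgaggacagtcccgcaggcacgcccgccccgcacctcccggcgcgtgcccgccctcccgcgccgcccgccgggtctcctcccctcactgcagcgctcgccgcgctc
Rasd2, chr8:75940322-75940621, plus strand: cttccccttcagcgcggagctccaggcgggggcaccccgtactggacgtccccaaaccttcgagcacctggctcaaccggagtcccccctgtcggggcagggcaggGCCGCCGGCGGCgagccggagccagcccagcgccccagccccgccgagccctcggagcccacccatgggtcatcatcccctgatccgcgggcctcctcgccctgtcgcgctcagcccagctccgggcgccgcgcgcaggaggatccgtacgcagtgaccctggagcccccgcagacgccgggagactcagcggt
The match in Syt2 begins 232 bases before the start. In Rasd2 there are 2 overlapping matches, the first 144 bases before it. Neither Tfap2d nor Cartpt holds the motif in this window, and their windows are 39.7% and 51.0% G and C, against a median of 58.7% over all genes tested.

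How the markers combined was counted within the Tfap2d cells. Of 154 uninjured Tfap2d cells, 140 held Cartpt and 111 held Satb1 at 1 per 10000 or more, and 103 held both. Of the other uninjured cells of these units, 48.4% held Cartpt, 37.1% Satb1, 5.12% Cck and 1.43% Runx1 at this rate. Runx1, a Runt-domain factor, reached it in 23 of the Tfap2d cells, and all 23 held Cartpt and Satb1 as well. Cck reached it in 42 Tfap2d cells, all of which held Cartpt, and 21 of which held Satb1. Since 140 of the 154 cells held Cartpt, nothing is read from its presence in all Runx1 and Cck cells. Of 50 injured Tfap2d cells, 5 held Runx1, of which 2 held Cartpt and 3 held Satb1, and neither of the 2 that held Cck held Cartpt. Cartpt was found in 82.5, 91.2, 96.8 and 100% of the Tfap2d cells of uninjured 3, 4, 5 and 6. Thinned to 8000 UMIs, with 1 UMI required, 90.8% of uninjured and 22.9% of injured Tfap2d cells held Cartpt, against 90.9% and 16.0% at 1 per 10000 unthinned. The thinned shares were 52.7% and 7.24% in the other cells.

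The effect of ONC within the Tfap2d cells was then tested, with 4 uninjured against 3 injured units. All 23 tested genes of the axon injury list rose. Of 38 channel and receptor genes 23 fell and 1 rose, and of 61 adhesion and guidance genes 27 fell and 10 rose. Of 8944 genes tested with edgeR, 991 (11.1%) rose and 979 (10.9%) fell. For 1379 genes (15.4%) every injured unit was above every uninjured one, and for 1445 (16.2%) every injured unit was below. Without injured 3/4, the unit with mCherry in most Tfap2d cells, 615 genes rose and 477 fell. Without cells that held at least 2 amacrine markers, 733 rose and 737 fell. Tfap2d itself stood at 263, 259, 220 and 253 CPM before and at 163, 206 and 193 CPM after ONC in the cells chosen for it. The cells compared after ONC are those that still met the Tfap2d limit, so loss of cells and loss of the transcript cannot be told apart. The limits on the other genes also acted unequally. Of the cells past the Tfap2d limit, 46 of 225 uninjured and 3 of 73 injured cells exceeded that on Neurod2. That on Foxp2 was exceeded by 15 and 18, and all limits together removed 70 and 23. Whether injured Tfap2d cells had held Neurod2 before ONC was not tested, which also limits the share and the comparison of responses.

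Of the axon injury genes, 23 of 23 tested rose and each had all injured units above all uninjured ones (median log2 change 3.29, against 0.01 over all genes). Sprr1a, a small proline-rich protein gene tied to axon regrowth, had no UMI in the uninjured Tfap2d cells and reached 649, 1811 and 1068 CPM in injured 1, 2 and 3/4. It was at least 2009-fold higher when 3 UMIs over the uninjured Tfap2d cells are taken as the floor (adjusted p = 3.39e-07). Ecel1, an endopeptidase-like gene induced in damaged neurons, also had none and reached 911, 1015 and 723 CPM, at least 1505-fold higher. In other cells of the injured units Sprr1a stood at 662, 922 and 763 CPM and Ecel1 at 962, 873 and 662 CPM.

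Atf3, a stress-induced transcription factor, went from 2.4, 0.7, 0 and 0 CPM to 532, 764 and 794 CPM (log2 9.23 ± 0.44 SE, adjusted p = 1.94e-08). Sox11, a developmental factor, went from 26.6, 32.0, 32.8 and 39.6 CPM to 886, 1023 and 831 CPM, which is 29.3-fold. The levels before and after ONC did not come near each other for either gene. Jun rose 13.8-fold and the growth cone protein gene Gap43 6.85-fold. The BH3-only genes Hrk (log2 8.53 ± 0.46 SE), Bbc3 and Bcl2l11, which promote cell death, were among the 23.

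Of the other genes with the largest rises, Ucn, the precursor of the stress peptide urocortin, had no UMI in uninjured cells of either class. It reached 305, 210 and 494 CPM in injured Tfap2d cells, at least 708-fold higher, and 48.0, 27.5 and 94.8 CPM in other injured cells. Glis3 (log2 8.84), the elastase gene Mmp12 (7.60) and the desmosomal gene Dsp (7.24) were also among these. Ifi202b was at least 203-fold higher, but its adjusted p rose to 0.0920 without uninjured 4. Spp1, the precursor of osteopontin, went from 17.7, 12.4, 10.5 and 18.5 CPM to 425, 271 and 888 CPM (37.8-fold, adjusted p = 8.04e-07). It stood at 43.0, 18.2 and 103 CPM in the other injured cells. The neuropeptide galanin (Gal) rose from at most 7.3 CPM to 305, 1051 and 150 CPM (adjusted p = 0.000454). Spp1 and Gal were found together, at 1 per 10000 or more, in 10 of 50 injured Tfap2d cells, each without the other in 8 and 10, and in 22 neither was found. Spp1 reached this rate in 23.1, 20 and 48.1% of the Tfap2d cells of injured 1, 2 and 3/4, against 1.90 to 4.00% of the other cells.

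Of the 10 genes with the largest rise in Tfap2d cells over the others, 6 fell after ONC and 1, Palld, rose (3.76-fold), where 10.9% of all genes tested fell and 11.1% rose. These 10 were chosen for their level in the same Tfap2d cells, so nothing is read from this count. Cartpt fell 20.5-fold (adjusted p = 2.93e-05), Cdh11 5.53-fold and Satb1 1.99-fold. Of 34 RGC type markers tested, 7 rose and 16 fell, and of 28 subclass transcription factors 2 rose and 9 fell. Irx4 and Irx6 are homeobox factors. Irx4 went from 43.7, 50.9, 65.6 and 58.0 CPM to no UMI in any injured Tfap2d cell, at least 22.1-fold lower. Irx6 fell from 47.9, 61.4, 111 and 84.4 CPM to 3.1, 4.0 and 0 CPM. Of 17 pan-RGC genes, 1 rose (Tubb3, 3.11-fold) and 7 fell, among them Rbpms2 (7.52-fold) and Pou4f1 (3.02-fold), while Slc17a6 did not pass the test (log2 0.41 ± 0.26 SE, adjusted p = 0.298).

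Among channels and receptors 1 of 38 tested rose and 23 fell (median log2 change -1.02). The nicotinic subunits Chrna6 and Chrnb3 fell most. Chrna6 was at 273, 283, 245 and 216 CPM before and at 15.4, 0 and 2.9 CPM after ONC (adjusted p = 1.96e-06), and the other cells held 1.0 to 2.6 CPM after ONC. The sodium channel Scn1a fell 3.18-fold. The exception was Glra1, the α1 subunit of the glycine receptor, which rose from 14.8, 5.8, 3.9 and 7.9 CPM to 43.1, 84.9 and 67.8 CPM (7.74-fold, adjusted p = 0.000101). The calcium-binding protein genes Necab2 and Hpca and the calmodulin-binding neurogranin gene Nrgn were among the 10 largest falls. Necab2 had no UMI in injured Tfap2d cells, at least 42.3-fold lower. Of 61 adhesion and guidance genes, 10 rose and 27 fell, with Pcdh15 (11.7-fold) the largest rise and Pcdh8 (13.6-fold) the largest fall. Immediate early and stress genes were divided, with 5 of 12 higher and 3 lower after ONC. Of 7 tested amacrine genes, 1 rose (C1ql2) and 2 fell, Pax6 among them, where 11.1% and 10.9% of all genes tested did. The C1ql2 call was lost without uninjured 4 (log2 2.84, adjusted p = 0.121).

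**Figure D4:**
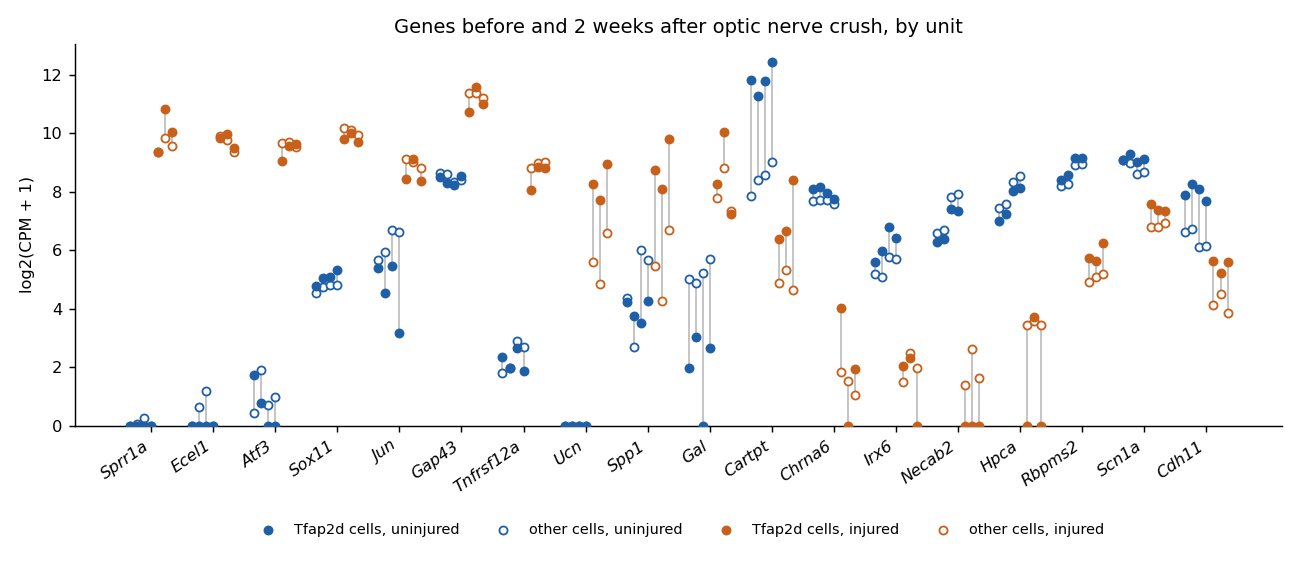
log2(CPM + 1) of genes that rose or fell after ONC in Tfap2d cells (filled) and other cells (open) of each unit, uninjured blue and injured orange. From Sprr1a to Gal the injured filled points lie above all uninjured ones, and from Cartpt to Cdh11 below them.

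Whether Tfap2d cells responded to ONC differently from the other RGCs was tested by the interaction of class and injury. Of 13809 genes tested with edgeR, the injury change of 158 (1.14%) was higher and that of 208 (1.51%) lower in Tfap2d cells. The count of higher genes was 79, 100 and 90 without uninjured 4, 5 and 6 and 78 without injured 3/4, and 63 without cells that held at least 2 amacrine markers. Of 23 axon injury genes tested, 1 differed, the stress factor gene Ddit3, whose rise was smaller in Tfap2d cells by 0.68 on the log2 scale (adjusted p = 0.0126). This call was lost without uninjured 5 (log2 -0.61, adjusted p = 0.0866). Sprr1a and Ecel1 had no UMI in uninjured Tfap2d cells, so the sizes of their rises could not be compared. Sprr1a reached 1 per 10000 in 61.5, 60 and 44.4% of the Tfap2d cells of injured 1, 2 and 3/4 and in 32.6, 26.2 and 23.3% of the other cells. In summed counts the classes of the injured units differed by 0.50 on the log2 scale for Sprr1a (edgeR adjusted p = 0.126), and the Spp1 responses, whose ratio was 13.9-fold, had an adjusted p of 0.0637.

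Of 65 adhesion and guidance genes tested, 3 had a higher and 14 a lower response (median log2 difference -0.29), where 1.14% and 1.51% of all genes did. The axon repellent Slit2 stood at 369, 386, 334 and 298 CPM in uninjured Tfap2d cells and at 105, 84.9 and 88.0 CPM in injured ones. In other cells it stood at 175, 200, 140 and 133 CPM, then at 154, 173 and 116 CPM. The Tfap2d cells were thus above the others before ONC and below them after it (log2 difference of the responses -1.71 ± 0.18 SE, adjusted p = 7.43e-10). The protocadherin Pcdh11x went from 421, 377, 292 and 433 CPM to 95.4, 243 and 108 CPM, while the other cells went from 114 to 150 CPM up to 186 to 321 CPM (log2 -2.34 ± 0.17 SE, adjusted p = 3.10e-15). The contactin-associated gene Cntnap4 stood at 123, 160, 123 and 214 CPM before and at 166, 162 and 208 CPM after ONC, against 32.8 to 49.8 CPM and 335 to 414 CPM in other cells (log2 difference of the responses -2.86).

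Runx1 showed the same crossing. It stood at 41.4, 39.97, 38.0 and 31.7 CPM in uninjured Tfap2d cells and at 27.7, 24.3 and 24.5 CPM in injured ones. Other cells went from 2.9 to 6.5 CPM before ONC to 38.2 to 50.7 CPM after it. The difference of the responses was -4.12 ± 0.31 SE on the log2 scale (adjusted p = 9.83e-15). Crim1, a transmembrane BMP-binding protein gene, differed by -2.21, doublecortin (Dcx) by -2.31, the peptidase gene Trhde by -2.47, Ly6h by -2.43 and Gm29266 by -2.53. The sulfotransferase gene Hs3st2 differed by -3.57 and the anoctamin gene Ano3 by -2.97, the latter with an adjusted p of 0.0510 without injured 3/4. D130009I18Rik had no UMI in injured Tfap2d cells, so its fitted value sets no size. Its adjusted p of 0.0265 rose to 0.198, 0.140 and 0.248 without uninjured 6, injured 1 or injured 3/4.

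Among the responses that were higher in Tfap2d cells, Pkib, an inhibitor of protein kinase A, went from 5.9, 5.8, 6.6 and 15.8 CPM to 185, 145 and 179 CPM, against 18.6 to 34.99 CPM and 138 to 146 CPM in other cells (log2 1.99 ± 0.25 SE, adjusted p = 2.21e-07). Below the other cells of its unit in each uninjured unit, it was above them in each injured one. Myo10, the filopodial myosin, differed by 1.64, the membrane repair gene Dysf by 1.62, Prickle2 by 1.40 and Nol3, a repressor of apoptosis, by 1.36. Sgpp2 (1.81), Pcp4l1 (1.52) and E130218I03Rik (1.32) lost their calls without injured 3/4, at log2 values of 1.16, 1.28 and 0.94. Mtfp1 (1.54) lost its call without injured 1 (1.04), and Fndc5 (1.38) without uninjured 4 (1.33), injured 1 (1.07) or injured 2 (1.39). Glra1 rose more by 2.56 on the log2 scale (adjusted p = 0.000235), with other cells at 7.7 to 14.9 CPM before and 8.6 to 21.3 CPM after ONC. The homeobox factor Meis2, also an amacrine marker, differed by 1.13 (adjusted p = 5.62e-05). Of 12 tested amacrine genes, Meis2 and Gad2 had a higher response and 0 a lower one, where 1.14% and 1.51% of all genes did. The median log2 difference of the 12 was 1.07, against -0.0014 over all genes tested. Gad2, a GABA synthesis enzyme, differed by 1.26 (adjusted p = 0.0287) and lost its call without uninjured 4 (1.35), uninjured 5 (1.18), injured 1 (1.03) or injured 3/4 (1.10). Without cells that held at least 2 amacrine markers, Gad2 itself being 1 of those counted, Meis2 kept its call at 1.44 and Gad2 lost it at 0.34.

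**Figure D5:**
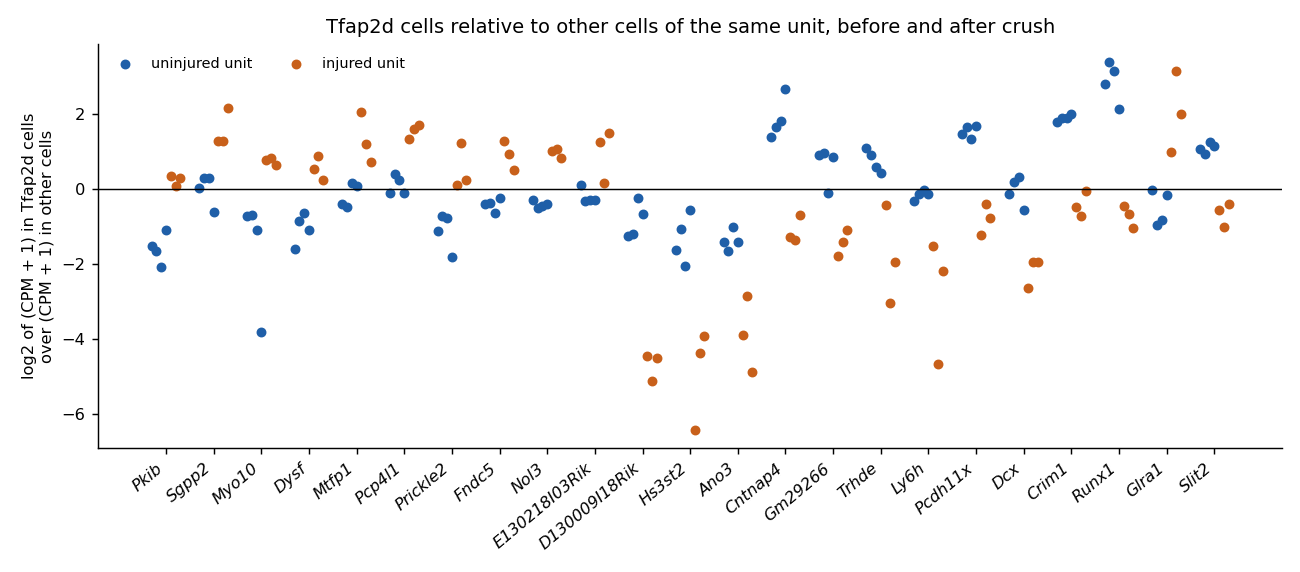
log2 of (CPM + 1) in Tfap2d cells over (CPM + 1) in the other cells of the same unit for 23 genes, uninjured units blue and injured orange, with the line at equal levels. The 10 genes on the left move up after ONC and the next 10, from D130009I18Rik to Crim1, move down, as do Runx1 and Slit2 on the right.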

How the data were processed

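RGCs were profiled by 10X Genomics single-cell RNA-seq. Per the labels, the authors used Cell Ranger 7.0.1 with the mm39 genome and deposited a filtered matrix of UMI counts per gene and cell for each of 10 libraries. The study's methods name another kit and software version than the labels, and the labels were followed. The study limited doublets by an upper bound on UMIs per cell, and no doublet caller was run here. Values are given for cells as deposited.

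The members and the gene lists were chosen with earlier results of these data known. Counts of Tfap2d cells and of all other cells were summed per unit. The contrasts were fitted with edgeR 4.0.16 (quasi-likelihood test, TMM scaling, filterByExpr, Benjamini-Hochberg adjusted p below 0.05): class with the unit as a block, injury within Tfap2d cells, and their interaction with the unit as a block. Uninjured 1 and uninjured 2, with 0 and 1 members, were left out of these fits. CPM are UMIs per 1000000 of the TMM-scaled library. Genes were named by a fixed rule: for each contrast, the 10 with the largest change each way among called genes whose mean log2 CPM was 5 or more, without mitochondrial genes and the genes of the limits, whose sign was the same in every unit (class) or whose conditions did not overlap (injury). Members of the gene lists were named as examples. Shares were compared by exact two-sided permutation tests. Confidence intervals are exact binomial at 95% and, like the floors of 3 UMIs, cover counting error only. Gene positions are from GENCODE M39. The scripts were tested on simulated data. DESeq2 1.42.0, limma 3.58.1 (voom) and other filters, limits and scalings were tried as alternatives. Some genes that the rule or the lists would name are not reported here.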

Additional observations from a re-analysis of the deposited data

Results flagged for a closer look

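In 7 of 99 groups of values in uninjured units tested, 1 unit lay far from the other 3 by Dixon's test, which by chance happens in about 1 in 20 groups. The lowest unit stood apart for Ndst4 at 15.7 CPM, Satb1 at 177 CPM and Pcdh10 at 87.1 CPM. The highest unit stood apart for Cck at 206 CPM, Trarg1 at 125 CPM, Clu at 156 CPM and Slit1 at 35.6 CPM.

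The change after ONC differed between Tfap2d cells and other cells, by the interaction term of the edgeR fit, for the 20 genes that the rule named. The log2 difference was 1.99 for Pkib, 1.81 for Sgpp2, 1.64 for Myo10, 1.62 for Dysf, 1.54 for Mtfp1, 1.52 for Pcp4l1, 1.40 for Prickle2, 1.38 for Fndc5, 1.36 for Nol3 and 1.32 for E130218I03Rik. It was -8.87 for D130009I18Rik, -3.57 for Hs3st2, -2.97 for Ano3, -2.86 for Cntnap4, -2.53 for Gm29266, -2.47 for Trhde, -2.43 for Ly6h, -2.34 for Pcdh11x, -2.31 for Dcx and -2.21 for Crim1. That of D130009I18Rik rests on injured Tfap2d cells without a UMI.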

How the results depend on the processing

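Counts of genes higher and lower in Tfap2d cells were 305 and 425, and after ONC 991 and 979 within them, with 158 and 208 responses that differed. With every unit that held a Tfap2d cell these became 183 and 281, 648 and 613, and 40 and 48. Without cells holding markers of another class, 29 of 205 Tfap2d cells and 933 of all 2871 cells were left over all units. The fits then held only uninjured 5, uninjured 6, injured 1 and injured 3/4, so cells and units changed together. The counts became 69 and 75, 253 and 283, and 10 and 9. Without the library block the class counts were 83 and 133, in uninjured units alone 608 and 766, and in injured units alone 156 and 210. Genes lower in Tfap2d cells numbered 871 with no filter on low counts, 206 with at least 10 counts in every sum and 274 with cells thinned to 8000 UMIs. The injury counts were 438 and 391 with at least 10 counts in every sum, 361 and 372 with at least 3 Tfap2d UMIs and 2 per 10000, and 427 and 438 thinned. The response counts were 21 and 60 with that stricter limit, 102 and 103 with the Tfap2d limit alone, and 36 and 98 thinned. The stricter limit also left injured 1 out of these fits, and the Tfap2d limit alone brought uninjured 2 in. Limit and units thus changed together in both settings. There were 342 lower responses with no filter, and 63 higher ones without cells holding amacrine markers, a setting chosen after seeing the data. By limma-voom 193 responses were higher and 168 lower, and by DESeq2 140 and 141. Leaving out 1 unit gave 165 to 350 and 261 to 504 genes for the class, 615 to 945 and 477 to 912 for injury, and 78 to 147 and 150 to 291 for the responses. The cause of these changes was not tested, beyond the fewer cells, genes or units that a setting leaves.

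The log2 difference of shares was 0.35 without cells holding markers of another class, -0.89 with the stricter limit (exact permutation p = 0.357), -0.75 with the Tfap2d limit alone (p = 0.167), and -0.72 to 0.19 when 1 unit was left out. Libraries 1 to 3 with their number as a replicate block gave 1.05 (exact permutation p = 0.5). That test had only 8 arrangements, so it could not give a low p. The labels do not say that libraries of equal number belong together. No paired analysis was possible for the gene tests because the groups with at least 5 Tfap2d cells per unit share only the number 3. The setting without uninjured 1 and 2 was chosen after seeing the data and leaves them out for their few Tfap2d cells, so it gets no test. The difference of shares was -1.28 in it. The ratio to Tbr1 cells was 0.13 in it, 0.44 and 0.73 thinned with at least 1 or 2 UMIs, 0.56 with the stricter limit, 3.42 without cells holding markers of another class, and 1.03 to 2.12 leaving out 1 unit. The ratio to Neurod2 cells was 3.10 and 3.45 thinned with at least 1 or 2 UMIs, 2.75 with the stricter limit, 2.93 without cells holding markers of another class, 3.79 without uninjured 1 and 2, and 4.23 to 5.54 leaving out 1 unit. The ratio to Foxp2 cells was -0.50 without uninjured 1 and 2, -0.012 with the stricter limit, and 0.060 to 0.85 leaving out 1 unit. That to Eomes cells was -0.41 without uninjured 1 and 2, and 0.31 to 1.42 leaving out 1. That to Opn4 cells was -1.49 without uninjured 1 and 2, -0.45 and -0.11 thinned with at least 1 or 2 UMIs, -0.59 with the stricter limit, -0.084 without cells holding markers of another class, and -0.72 to 0.62 leaving out 1. These ratios are a description, with no test. Single genes that reversed were Pou4f3 (-0.061, class in injured units alone), Mtfp1 (-0.56) and Tubb3 (-0.38) in their responses under the stricter limit, and Gm29266 (2.54) and Nefm (-0.39) in theirs without cells holding markers of another class. Of 1211 class values of named genes under alternatives 144 lost their call, of 998 injury values 39, and of 891 responses 196.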
